A study of Mus musculus with 4 samples.

Results

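Endothelial cells of the Tbx1 lineage were examined in single-cell RNA-seq libraries of sorted mouse embryo cells. Members were chosen by measured values of 3 genes. A barcode was an endothelial member where its raw unique molecular identifiers (UMIs) of Cdh5 and Pecam1 summed to at least 3 and its Epcam UMIs did not exceed 2. Cdh5 encodes VE-cadherin and Pecam1 encodes CD31, both adhesion molecules of endothelial junctions, and Epcam encodes an epithelial adhesion molecule. The rule found 418 members among 14243 barcodes. At E8.5 the control library held 21 of them and the knockout library 13. At E9.5 the counts were 315 and 69.

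All embryos were of the Swiss Webster strain and carried 1 Tbx1Cre allele and 1 Rosa26-GFPflox allele, so that Cre made from the Tbx1 locus switched on GFP in the Tbx1 lineage. Control (Ctrl) embryos were Tbx1Cre/+;Rosa26-GFPflox/+, and conditional knockout (cKO) embryos were Tbx1Cre/flox;Rosa26-GFPflox/+, with the remaining Tbx1 allele flanked by loxP sites. The control thus shared the Cre allele and was no wild type. The upper part of the body was taken at E8.5, and the pharyngeal apparatus with the heart at E9.5, where the study also lists the back. More embryos were pooled for Ctrl than for cKO at both stages. At E8.5 the cKO embryos had a slightly later somite range than Ctrl. The part of these differences in the values below was not tested. Dissected tissue was pooled, dissociated in trypsin-EDTA, and GFP-positive cells that excluded DAPI were sorted and loaded on a droplet instrument that reads the 3′ end of transcripts. Cre acted in every tissue that had expressed Tbx1, so members can come from several vascular beds. There was 1 library per group and no replicate. Intervals given below are 95% intervals for counting error, and genotype cannot be told apart from library at either stage.

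Endothelial cells line the heart and all vessels. They arise from mesoderm under the transcription factor Etv2 and the VEGF receptor Kdr, and they then acquire arterial, venous or endocardial identity. Notch signalling through the ligand Dll4 and its targets of the Hey family marks arteries, together with the gap junction proteins encoded by Gja4 and Gja5. Venous cells rely on the nuclear receptor Nr2f2. The endocardium, the inner lining of the heart, expresses Nfatc1, a calcium-regulated transcription factor needed for valve formation.

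The promoters of the 3 genes that mark the arterial members in these data are shown because their transcripts were found together in the same cells. The windows were taken from RefSeq on GRCm38.p6 at chr4:127313990-127314289 on the minus strand for Gja4, chr2:119325534-119325833 on the plus strand for Dll4 and chr3:97032152-97032451 on the plus strand for Gja5. Each is written 5′ to 3′ along the gene, and capitals mark the only match among 4 searched motifs.
Gja4: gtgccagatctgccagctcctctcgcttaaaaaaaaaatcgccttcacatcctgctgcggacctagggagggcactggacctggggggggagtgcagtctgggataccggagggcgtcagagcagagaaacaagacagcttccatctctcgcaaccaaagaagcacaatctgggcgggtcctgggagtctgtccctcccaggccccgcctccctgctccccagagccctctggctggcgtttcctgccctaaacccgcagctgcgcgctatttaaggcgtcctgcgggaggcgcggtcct
Dll4: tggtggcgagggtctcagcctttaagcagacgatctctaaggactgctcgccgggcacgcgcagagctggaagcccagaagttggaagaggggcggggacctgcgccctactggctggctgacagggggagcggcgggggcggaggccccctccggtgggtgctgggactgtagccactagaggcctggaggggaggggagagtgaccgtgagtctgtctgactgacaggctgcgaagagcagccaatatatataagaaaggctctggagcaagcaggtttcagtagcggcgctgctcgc
Gja5: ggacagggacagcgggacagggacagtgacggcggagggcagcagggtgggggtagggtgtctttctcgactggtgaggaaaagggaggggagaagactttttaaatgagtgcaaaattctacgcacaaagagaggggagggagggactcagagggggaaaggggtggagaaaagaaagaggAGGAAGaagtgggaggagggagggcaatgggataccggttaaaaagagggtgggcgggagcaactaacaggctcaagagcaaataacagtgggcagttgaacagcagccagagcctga
The motifs, read on both strands, were TGGGAA for RBPJ, AGGTGTGA for T-box factors, and CCGGAAGT and the shorter AGGAAG for ETS factors. AGGAAG was found in the Gja5 window, and 35.1% of 27025 promoters of the same length held it. TGGGAA, AGGTGTGA and CCGGAAGT were in none of the 3 windows and in 25.5%, 1.27% and 4% of all promoters.

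Levels are given as UMIs per 1000000 UMIs of shared genes, summed over the members of a library (UPM). Values of 4 libraries are listed in the order Ctrl E8.5, cKO E8.5, Ctrl E9.5 and cKO E9.5 throughout. Counts of 3′ tags were not scaled by transcript length, so levels are compared between libraries and never between genes. Median members held 19404, 25078, 20496 and 16350 UMIs, against 17251, 23960, 16455.5 and 15904 in the remaining barcodes. The 4 libraries shared 83 barcode sequences, of which 3 were members in at least 1 library and 1 in both E9.5 libraries. Members above 2 times the median total of their library numbered 0, 0, 21 and 3, and no doublet caller was run. A larger gene table had been used to count cKO E9.5, and only the 27514 genes that all 4 libraries share were kept. For this reason the ratio in non-members, meaning all other barcodes of the same libraries, is set beside the ratios in members.

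The label was checked against endothelial genes that the rule did not use. Emcn, which encodes the sialomucin endomucin, stood at 185, 184, 451 and 443 UPM in members and at 10.3, 9.01, 9.06 and 8.31 in non-members. Kdr stood at 148, 226, 223 and 232 UPM against 40.9, 48.7, 10.3 and 6.33. The claudin gene Cldn5, a tight junction component, stood at 209, 164, 816 and 762 UPM against 6.09, 8.69, 15.2 and 6.80. Both Emcn and Cldn5 were thus far above the non-members in each library, and Kdr was more widely spread at E8.5. Counted with Cdh5 and Pecam1, which chose the members and so are no check, all 4 of Cdh5, Pecam1, Kdr and Emcn were present in 14 of 21, 4 of 13, 240 of 315 and 51 of 69 members. In cKO E8.5, 8 of 13 members had no Pecam1 UMI and were found through Cdh5.

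Lists of markers of other cell types were compared with non-members. The 6 epithelial markers summed to 21.1, 0, 18.4 and 12.3 UPM in members against 75.0, 63.5, 335 and 89.1 in non-members. Epcam, which the rule limited, is 1 of the 6, so this sum was in part set by the rule and is no full check. The 8 cardiomyocyte markers summed to 93.7, 58.0, 23.7 and 24.6 UPM against 450, 495, 563 and 295, with Tnnt2, a sarcomere gene, at 11.7, 3.22, 2.86 and 1.64. The 8 erythroid markers summed to 2.34, 0, 2.71 and 16.4 UPM against 0.806, 0.354, 73.2 and 5.06, so they were above the non-members in cKO E9.5. There 18 of the 20 UMIs were of Hbb-y, an embryonic globin gene, in 6 members, while the erythroid regulator genes Gata1 and Klf1 and the haem synthesis gene Alas2 were at 0 UMIs in the members of every library. The 8 mesenchyme markers summed to 190, 132, 112 and 126 UPM against 810, 833, 659 and 808. The 6 haemogenic markers summed to 9.37, 6.45, 10.7 and 10.6 UPM, above the 1.93, 1.81, 2.78 and 2.26 of non-members. Over the 4 libraries most of these UMIs were of Itga2b, the integrin CD41, at 7.03, 3.22, 9.34 and 9.82 UPM. Gfi1 and Myb were at 0 UMIs in the members of all libraries, and Runx1 held 2 UMIs in Ctrl E9.5 and none in the other 3. The 5 neural crest markers summed to 77.3, 64.5, 97.0 and 77.8 UPM, above the 28.8, 32.0, 31.0 and 28.3 of non-members. Nearly all of it was Ets1, an ETS factor that endothelial cells express too, at 75.0, 61.2, 95.7 and 76.9 UPM, while Foxd3 and Tfap2b were at 0 UMIs in every library and Sox10 held 1 UMI in Ctrl E8.5 only. Neural markers summed to 2.34, 0, 2.41 and 40.1 UPM against 14.9, 12.7, 51.2 and 65.2, and a single cKO E9.5 member held 28 of the 32 UMIs of Tubb3, a neuronal tubulin, and all 11 of Neurod1.

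At the edge of the rule, 6, 4, 39 and 17 barcodes summed to 2 UMIs of Cdh5 and Pecam1 and stayed outside, while 8, 3, 34 and 16 summed to 3 and were members. In Ctrl E9.5, Emcn was 363 UPM just outside and 445 UPM just inside. In cKO E9.5 it was 384 and 412 UPM. Barcodes just outside thus had Emcn levels close to those of the members just inside. The Epcam limit removed 2 barcodes, both in Ctrl E9.5.

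Tbx1, the targeted transcription factor, was read at the 3′ end. It was not established here that those reads lie in the deleted part, so they do not check the genotype. Tbx1 in members stood at 30.5, 19.3, 37.1 and 50.8 UPM, from 13, 6, 246 and 62 UMIs. Non-members had more Tbx1 in every library, at 87.3, 119, 109 and 135 UPM. The log2 ratio of cKO to Ctrl at E9.5 was 0.45 (0.03 to 0.86) in members and 0.32 in non-members. Tbx1 transcript was therefore still counted in cKO members.

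Endothelial members were a larger share of control cells than of cKO cells at E9.5, while the E8.5 intervals overlapped. Members made up 1.46% (Clopper-Pearson 0.909 to 2.23) of Ctrl E8.5 barcodes and 1.19% (0.637 to 2.03) of cKO E8.5. One day later they made up 5.78% (5.17 to 6.43) of the control and 1.10% (0.858 to 1.39) of the knockout. The difference of cKO minus Ctrl was −0.272 percentage points (Newcombe −1.18 to 0.706) at E8.5, where the intervals overlapped, and −4.68 points (−5.37 to −4.02) at E9.5. With at least 5 UMIs of Cdh5 and Pecam1 required, the E9.5 shares were 4.49% and 0.622%. With every barcode first thinned at random to 10000 UMIs, they were 3.93% and 0.666%. These shares depend on what was dissected and sorted, and with 1 library per group the spread between embryos was not measured.

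**Figure D1:**
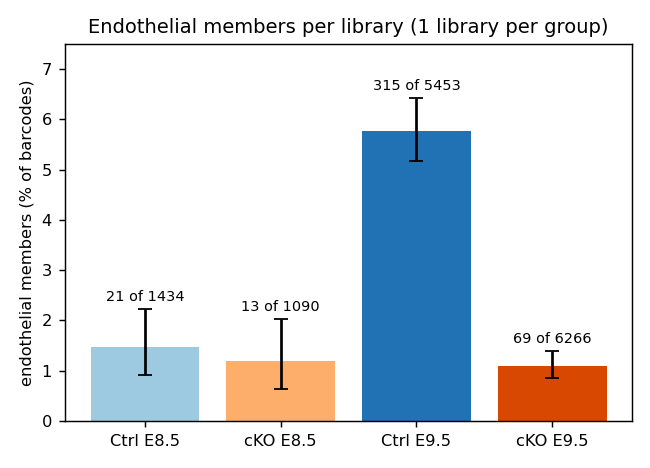
Share of barcodes that met the endothelial rule (y axis, percent) in each library (x axis). Bars give the share, black lines the 95% Clopper-Pearson interval, and numbers above bars the members of all barcodes. Ctrl E9.5 stood at 5.78%, and the other 3 libraries lay between 1.10% and 1.46%.

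Most genes of the endothelial list differed little between genotypes in E9.5 members. Of 17 measured genes of the endothelial list, 1 was past the fold in each direction, and their median log2 ratio of cKO to Ctrl was −0.10, beside −0.20 over all 8216 genes measured. Cdh5 and Pecam1, which chose the members, are among the 17, and their part in this count and median is no check. A gene was measured where it held at least 50 UMIs over the members of both libraries, and it was past the fold where its ratio was at least 2-fold either way and its interval left out 0 on the log2 scale. Over all measured genes 5.66% were past the fold at E9.5, with 96 higher (1.17%) and 369 lower (4.49%) in cKO. With the non-member ratio subtracted the balance turned, to 156 higher and 64 lower, and with a minimum of 1 UMI it was 275 and 407. Of those 465 genes, 282 (60.6%) had a non-member ratio in the same direction that was too large, beside that of members, for naming by size. The limit for naming is given with the processing of the data. No fold and no interval was required of non-members. TMM scaling, which adds 0.124 to every log2 ratio of this comparison, changed the split to 142 higher and 241 lower.

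Log2 ratios near 0 were found for Emcn (−0.03, −0.16 to 0.10), Kdr (0.06, −0.13 to 0.24), the angiopoietin receptor gene Tek (0.00, −0.33 to 0.32) and the vascular orphan receptor gene Tie1 (0.09, −0.29 to 0.45). The Emcn value pools members with and without a Gja4 or Dll4 UMI, in which its ratios had opposite signs, as given below. Cdh5 and Pecam1, which chose the members, stood at −0.07 and −0.12. Esam, an endothelial adhesion molecule, was lower in cKO at −0.48 (−0.67 to −0.29), short of the fold. None of these genes passed the fold.

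Sox18 and Erg were the endothelial list genes past the fold. Sox18, a SOXF transcription factor of vascular and lymphatic development, stood at 63.3, 158, 61.2 and 124 UPM. Both cKO libraries stood above both controls. Its log2 ratio was 1.32 (0.61 to 2.05) at E8.5 and 1.01 (0.74 to 1.29) at E9.5, beside 0.80 and −0.11 in non-members. After thinning to 10000 UMIs, a Sox18 UMI was found in 10 of 21, 11 of 12, 132 of 299 and 45 of 62 members, and in 2 of 687 and 0 of 194 Epcam-positive cells without Cdh5 or Pecam1 at E9.5. Positive members at E9.5 were 72.6% (59.8 to 83.1) of the knockout and 44.1% (38.4 to 49.98) of the control, and the intervals did not overlap. Without the member that held most Sox18 UMIs in each library the E9.5 ratio was 0.97 (0.69 to 1.25), just short of the fold. Erg, an ETS factor of endothelial maintenance, stood at 35.2, 38.7, 41.4 and 3.27 UPM. It fell to 4 UMIs in cKO E9.5, a log2 ratio of −3.66 (−5.55 to −2.29). Non-members stood at 0.650 and 0.0483 UPM, from 57 and 5 UMIs, a log2 ratio of −3.75. Non-members hold the barcodes just outside the rule as well, so these few UMIs do not show the level in other cells. Whether the other gene table took part in it was not tested.

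**Figure D2:**
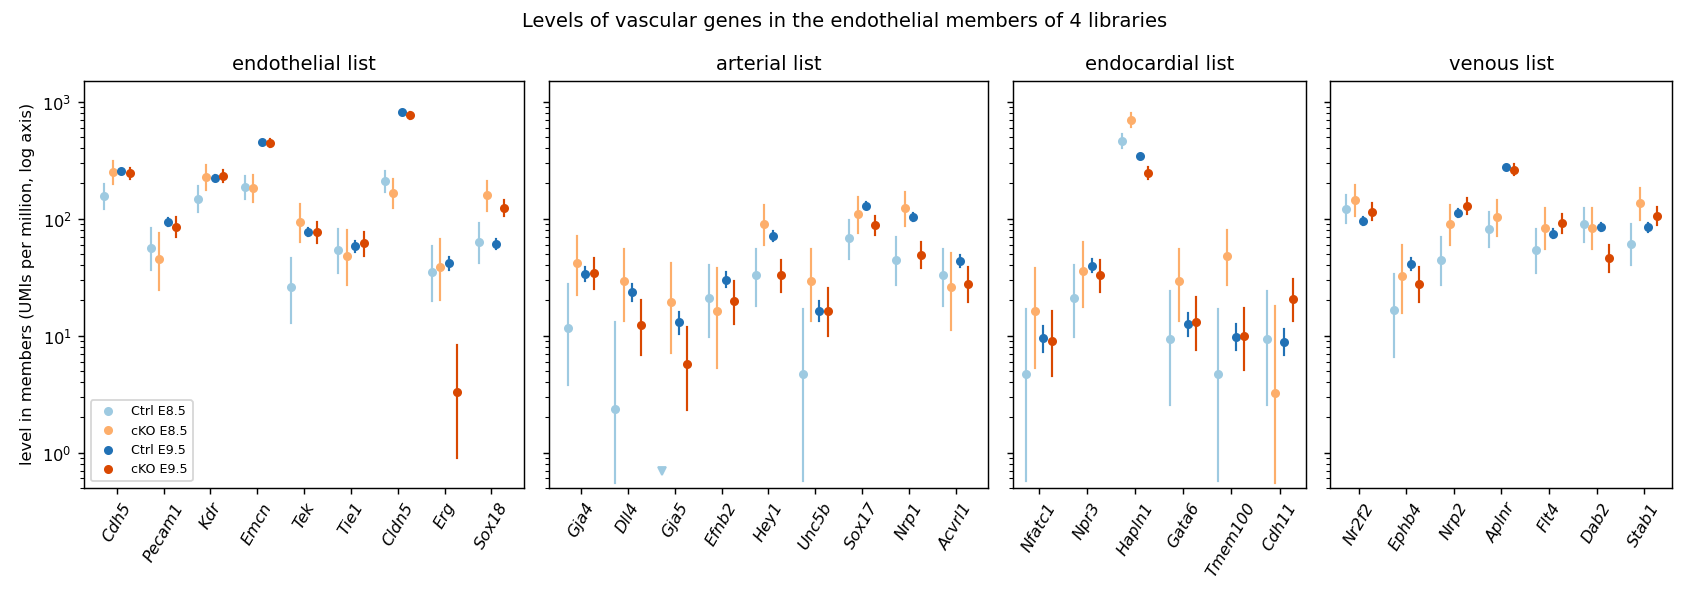
Levels in members (y axis, UMIs per 1000000, log axis) of endothelial, arterial, endocardial and venous list genes in the 4 libraries (colours). Points are levels, lines 95% Poisson intervals and triangles 0 UMIs. Erg stands apart in cKO E9.5 at 3.27, and Sox18 stands at 158 and 124 in the cKO libraries.

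The arterial list summed to 473 UPM in Ctrl and 296 in cKO members at E9.5. Of 13 genes 9 were measured. Past the fold, 3 were lower and none higher, beside 4.49% lower and 1.17% higher of all measured genes. Of the 9 intervals 7 lay below 0, beside 22.4% of all measured genes. Their median log2 ratio was −0.64, against −0.20 over all genes. The 3 genes past the fold were Gja5, Hey1 and Nrp1. Gja5, Hey1, Dll4 and Gja4, at 7, 40, 15 and 42 UMIs in cKO, were among those that passed the minimum of 50 UMIs through Ctrl alone. The counts of genes past the fold and of intervals, and the median, therefore give no support. With a minimum of 1 UMI the arterial median was −0.63. Hey1, a Notch target repressor, stood at 32.8, 90.3, 71.1 and 32.7 UPM, from 14, 28, 472 and 40 UMIs. Its ratio at E9.5 was −1.12 (−1.62 to −0.65), and that of non-members −0.92. Nrp1, a co-receptor for VEGF and class 3 semaphorins, stood at 44.5, 122, 103 and 49.1 UPM, with −1.07 (−1.48 to −0.69) at E9.5 and −0.94 in non-members. Both genes were therefore lower in members and in the remaining cells by about the same amount. Gja5, which encodes a vascular connexin, stood at 0, 19.3, 12.96 and 5.73 UPM, from 0, 6, 86 and 7 UMIs, and its ratio at E9.5 was −1.18 (−2.53 to −0.07). It was carried by few cells, 20 of 315 in Ctrl and 3 of 69 in cKO, and without the leading member of each library the ratio was −2.71 (−5.79 to −0.81).

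Gja4 and Dll4 had E9.5 ratios with overlapping intervals, and the difference between them was not tested. Gja4, another vascular connexin, stood at 11.7, 41.9, 33.8 and 34.4 UPM, from 5, 13, 224 and 42 UMIs. Both E9.5 libraries were level, with a ratio of 0.03 (−0.49 to 0.51), although 1 cKO member held 15 of the 42 UMIs and the ratio without the leading member of each library was −0.44 (−1.08 to 0.14). Dll4 stood at 2.34, 29.0, 23.4 and 12.3 UPM, from 1, 9, 155 and 15 UMIs. Its ratio at E9.5 was −0.93 (−1.80 to −0.16), which missed the fold, and without the leading member of each library it was −1.18 (−2.17 to −0.33). Non-members had −1.88 for Gja4 and −1.92 for Dll4, from levels under 1 UPM. Sox17, a SOXF factor of arterial specification, stood at 68.0, 110, 129 and 87.6 UPM, with −0.56 (−0.86 to −0.27) at E9.5 and −1.99 in non-members. Efnb2, the arterial ephrin ligand, had −0.62, with an interval from −1.29 to just under 0, and Acvrl1, a BMP9 receptor, −0.64 (−1.20 to −0.13). The netrin receptor gene Unc5b was level at 0.01 (−0.76 to 0.71). When the non-member ratio was subtracted from each gene, the arterial median turned from −0.64 to 0.46. Hey1 and Nrp1 did not take part in the turn, since their non-member ratios were smaller than those of members, and Gja4 and Dll4 did so from non-member levels under 1 UPM.

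**Figure D3:**
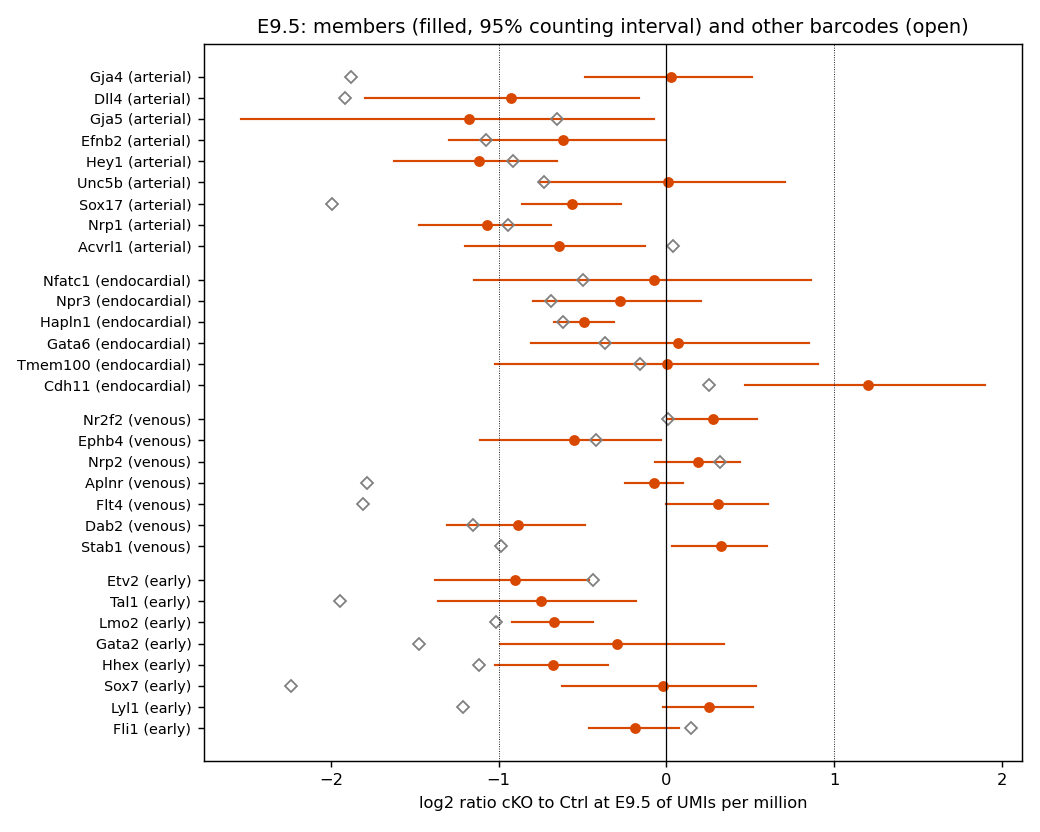
Log2 ratio of cKO to Ctrl at E9.5 (x axis) of arterial, endocardial, venous and early haemato-endothelial list genes (y axis). Filled points with lines are members with 95% counting intervals, open diamonds are non-members, and dotted lines mark the fold of 2. The arterial points lie mostly left of 0, with Gja4 and Unc5b at 0.03 and 0.01.

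To describe arterial cells one by one, members with a UMI of Gja4 or Dll4 were counted after thinning to 10000 UMIs. They numbered 1 of 21, 4 of 12, 65 of 299 and 11 of 62. The shares at E9.5 were 21.7% (17.2 to 26.9) in Ctrl and 17.7% (9.20 to 29.5) in cKO. Epcam-positive cells gave 1.02% (7 of 687) and 1.03% (2 of 194) in those libraries, which is the background. The difference at E9.5 was −4.00 points (−13.1 to 8.09), and at E8.5 it was 28.6 points (2.08 to 56.5), from 1 and 4 cells. Without thinning the shares at E9.5 were 31.1% and 24.6%. A smaller share of arterial cells in cKO was thus not detectable at this depth.

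Within Ctrl E9.5 these arterial members differed from the other 234 in many genes. Gja4 was found in 39 members and Dll4 in 48, and 22 held both, which is 56.4% of the first and 45.8% of the second. Gja5, left out of the selection, held 50 UMIs in 14 of the 65 arterial members and 1 UMI in the other 234. Hey1 was 271 against 21.9 UPM, a log2 ratio of 3.63 (3.17 to 4.11). The tip cell gene Esm1 (75.8 against 7.31 UPM), the transcription factor gene Mecom (63.4 against 6.45) and Unc5b (57.2 against 6.45) were next by fold. Efnb2 (80.4 against 21.9), Sox17 (274 against 98.9) and Nrp1 (193 against 70.9) were higher as well. Acvrl1 differed less, at 58.8 against 37.4. Most Sox17 UMIs (230 of 407) and Nrp1 UMIs (165 of 290) were nevertheless in the other 234 members, so higher levels did not mean that these transcripts were confined to the 65.

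Npr3, the natriuretic peptide clearance receptor and a gene of the endocardial list, was also higher in arterial members at 102 against 25.4 UPM. It was found in 31 of the 65, so the arterial name does not exclude endocardial list transcripts. Hapln1, of the same list, was level at 333 against 342 UPM. Hopx, an atypical homeodomain protein, was higher in arterial members at 57.2 against 15.05. Sat1, an enzyme of polyamine breakdown, stood at 452 against 89.0. Trim47 and the thromboxane receptor gene Tbxa2r completed the 10 highest, at 60.3 against 11.6 and 52.6 against 10.3 UPM. Among the 5 lowest were Tgm2, the tissue transglutaminase, at 9.28 against 72.7 UPM, and Nts, Fbxo11 and Pim1, with log2 ratios between −2.36 and −2.06. Venous genes were lower in arterial members. Nrp2, a receptor of venous and lymphatic cells, stood at 34.0 against 127 UPM, Nr2f2 at 41.8 against 111 and Aplnr, the apelin receptor, at 179 against 324. These genes were named by size from the same cells that the Gja4 and Dll4 counts split, and they describe those cells without a test.

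**Figure D4:**
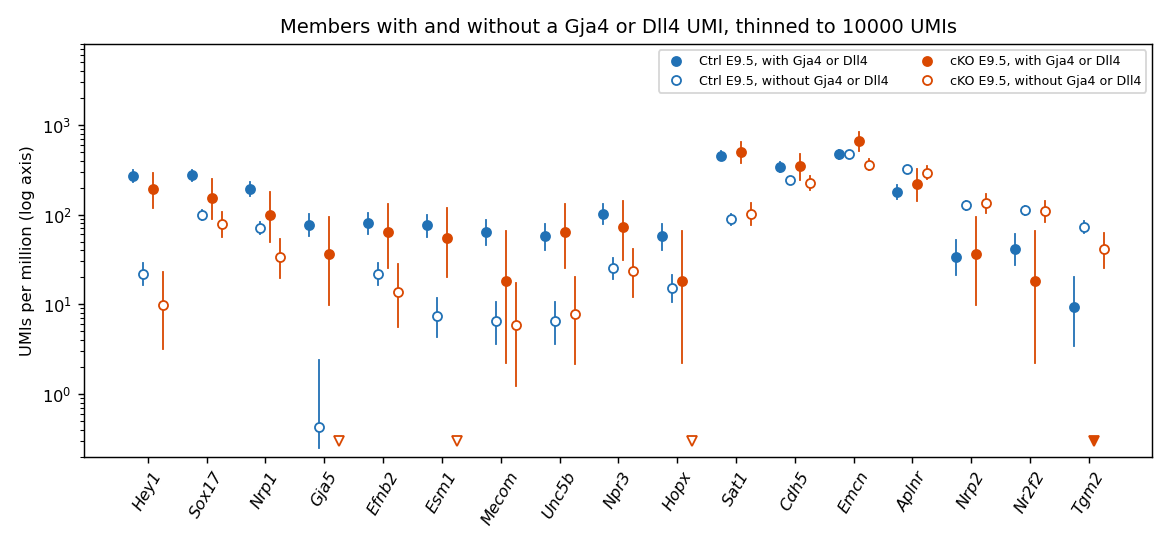
Levels (y axis, UMIs per 1000000, log axis) of genes (x axis) in E9.5 members with (filled) and without (open) a Gja4 or Dll4 UMI, for Ctrl (blue) and cKO (orange). Cells were thinned to 10000 UMIs, lines are 95% Poisson intervals and triangles mark 0 UMIs. Hey1 to Sat1 are higher, and Aplnr to Tgm2 lower, in Ctrl members with Gja4 or Dll4.

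The same split was made in cKO E9.5, which had 11 arterial members and 51 others. Hey1 was 191 against 9.82 UPM there, from 21 and 5 UMIs, and Nr2f2 18.2 against 110, from 2 and 56 UMIs. Both genes differed in the same direction as in Ctrl, though from few UMIs. Between genotypes, Nrp1 was lower in cKO among arterial members at −0.95 (−1.99 to −0.06) and among the others at −1.09 (−1.90 to −0.36). Sox17 was lower among arterial members at −0.82 (−1.63 to −0.10), and among the others its interval included 0. Sox18 was higher in cKO in both, at 1.13 (0.29 to 1.92) and 1.17 (0.72 to 1.61). The Sox18 and Nrp1 differences were thus seen in both kinds of member. Emcn was higher in cKO among arterial members at 0.48 (0.09 to 0.86) and lower among the others at −0.38 (−0.62 to −0.16).

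The endocardial gene Nfatc1 was rare in the members. It stood at 4.69, 16.1, 9.49 and 9.005 UPM, from 2, 5, 63 and 11 UMIs. After thinning it was found in 1 of 21, 3 of 12, 22 of 299 and 5 of 62 members. At E9.5 that is 7.36% (4.67 to 10.9) of Ctrl and 8.06% (2.67 to 17.8) of cKO members, against 0.728% (5 of 687) and 1.03% (2 of 194) of Epcam-positive cells. Most positive members held a single UMI, and 2 or more were found in 2 thinned Ctrl members and 1 cKO member at E9.5. Its log2 ratio at E9.5 was −0.08 (−1.15 to 0.86), an interval wide enough to hold a 2-fold lower level.

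Of the 10 endocardial genes, 6 were measured at E9.5, with a median log2 ratio of −0.04. Cdh11 was past the fold higher and none lower. Npr3 stood at 21.1, 35.5, 39.6 and 32.7 UPM, with a ratio of −0.28 (−0.79 to 0.21). Hapln1, a hyaluronan link protein of the cardiac jelly, stood at 464, 693, 345 and 246 UPM, with −0.49 (−0.67 to −0.32), beside −0.62 in non-members. The GATA factor gene Gata6 had 0.07 (−0.81 to 0.85), and Tmem100, a target of BMP signalling in endothelium, 0.00 (−1.02 to 0.91). Gata4 and Gata5, cardiac GATA factors, held 19 and 7 UMIs at E9.5 in the control and 3 each in the knockout, too few to be measured. Cdh11, a cadherin of mesenchymal cells, had 1.203 (0.47 to 1.90), but a single cKO member held 9 of its 25 UMIs, and without the leading members the ratio was 0.79 (−0.12 to 1.62). Without the leading members Hapln1 stayed at −0.54 (−0.73 to −0.36) and Npr3 had −0.54, with an upper bound just under 0.

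Members of Ctrl E9.5 with an Nfatc1 UMI numbered 22, and 5 of them also held Gja4 or Dll4, which is 22.7% of the 22 and 7.69% of the 65 arterial members. Among genes with at least 50 UMIs, Spata13 (64.0 against 13.1 UPM), the cell cycle inhibitor gene Cdkn1c (1020 against 298) and Klf2, a flow-responsive factor (412 against 124), were the highest by fold in members with Nfatc1. Aes, Fam53b, Ucp2, Madcam1, Acsf2, Ecm1 and Sgms1 followed, with log2 ratios between 1.59 and 1.43. Nrarp, a Notch feedback regulator, stood at 105 against 41.0 UPM, and Nr2f2 at 50.3 against 99.9. Fbxl5, Pds5b, Jarid2, Suv39h1 and Actr6 were the lowest, each with 1 UMI in the 22 cells. Of the endocardial list, Npr3 stood at 41.2 against 42.1 UPM and Hapln1 at 462 against 330, and Npr3 was found in 4 of the 22 cells. The contrast with the Gja4 or Dll4 split, where Gja5 and Hey1 stood far apart, was not tested.

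**Figure D5:**
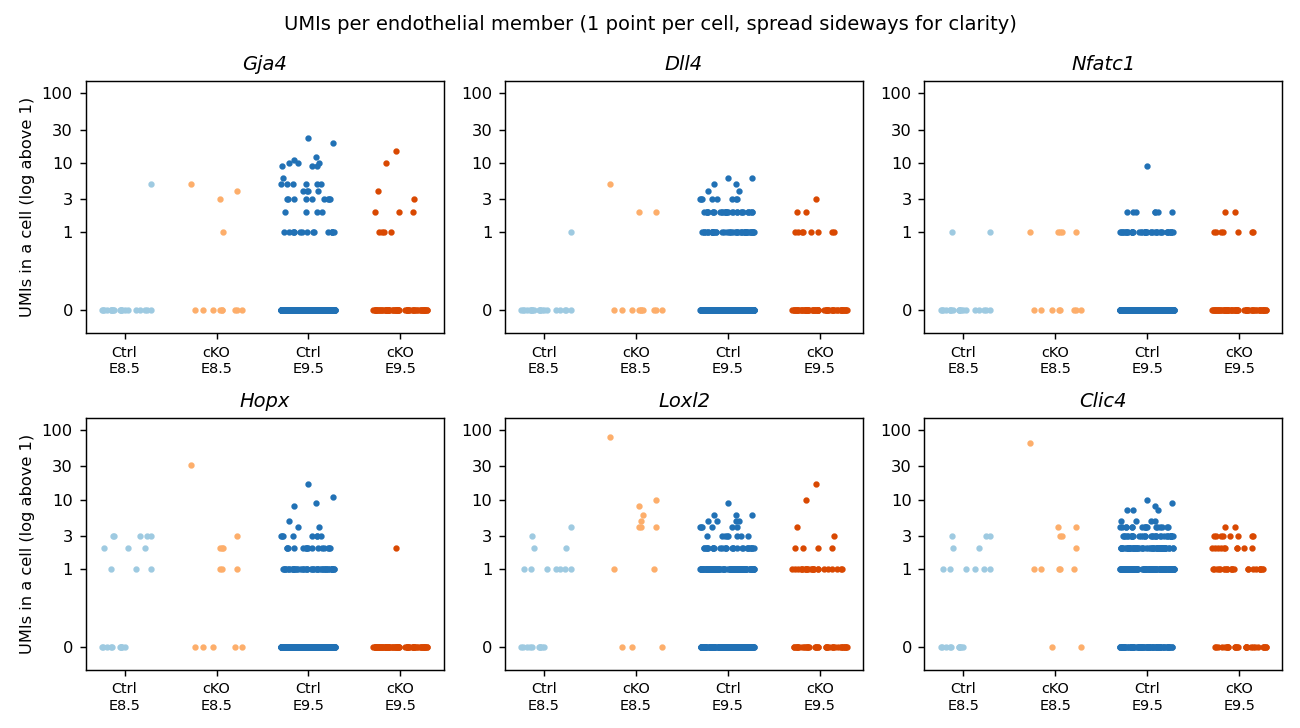
UMIs of Gja4, Dll4, Nfatc1, Hopx, Loxl2 and Clic4 in every endothelial member (y axis, linear below 1 and log above) of the 4 libraries (x axis), 1 point per cell. Gja4 reaches 23 UMIs in a Ctrl E9.5 cell, Nfatc1 stays at or below 2 in all but 1 cell, and single cKO E8.5 cells reach 31 for Hopx, 80 for Loxl2 and 66 for Clic4.

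Venous genes were not lower as a group in cKO at E9.5. All 7 were measured, none was past the fold, and their median log2 ratio was 0.19. Nr2f2 stood at 122, 145, 94.6 and 115 UPM, with 0.28 and an interval from just above 0 to 0.54. Nrp2 stood at 44.5, 90.3, 112 and 128 UPM, with 0.19 (−0.07 to 0.44), and Aplnr at 82.0, 103, 277 and 263, with −0.07 (−0.25 to 0.10). Stab1, a scavenger receptor of sinusoidal endothelium, had 0.32 (0.04 to 0.60) and Flt4, the VEGF-C receptor, 0.31, with an interval from just above 0 to 0.61. Dab2, an endocytic adaptor, was the lowest at −0.89 (−1.31 to −0.49), beside −1.15 in non-members, and Ephb4, the ephrin-B2 receptor, had −0.55 (−1.11 to −0.04). The venous and arterial medians were on opposite sides of 0, and the difference between them was not tested. Of the lymphatic list only Flt4 and Sox18 were measured. Prox1, the lymphatic master regulator, held 37 UMIs in Ctrl and 2 in cKO members at E9.5, and Lyve1 held 3 and 0.

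None of the 8 early haemato-endothelial genes was past the fold at E9.5. All were measured, 4 had intervals below 0, beside 22.4% of all measured genes, and the median was −0.48. Etv2 and Tal1 passed the minimum of UMIs through Ctrl alone, so the count of intervals gives no support. Etv2 stood at 98.4, 184, 68.9 and 36.8 UPM, with −0.90 (−1.38 to −0.46), beside −0.44 in non-members. Lmo2, a bridging factor of the same complex as Tal1, stood at 108, 203, 208 and 130 UPM, with −0.67 (−0.92 to −0.44). Tal1 had −0.75 (−1.36 to −0.18), Hhex, a homeobox factor, −0.68 (−1.02 to −0.35), and Lyl1, a relative of Tal1, 0.25 (−0.02 to 0.52). Non-members had lower ratios still for Lmo2 (−1.02), Tal1 (−1.95) and Hhex (−1.12).

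Barcodes with at least 3 Etv2 UMIs that did not meet the rule were set beside the members as a second population. They numbered 121, 91, 81 and 58. Their Emcn stood at 48.6, 58.6, 219 and 155 UPM and their Cldn5 at 26.0, 59.0, 500 and 323, below the members in each library. Tal1 stood at 89.0, 94.6, 179 and 83.8 UPM and was above the members. At E9.5 their Nrp1 was 101 UPM with Ctrl and 53.5 with cKO genotype, close to the members' own 103 and 49.1. Sox18, at 48.4 and 57.9 UPM, was nearer between genotypes than in the members. With 1 library per group these differences were not tested.

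Genes were also named by size alone, taking the 12 highest and 12 lowest past the fold whose ratio in non-members was well under that in members. At E9.5 the lower genes all had 1 or 2 UMIs in cKO, so their ratios were wide. Hopx, with the most UMIs of them in Ctrl, stood at 56.2, 139, 24.3 and 1.64 UPM, from 161 UMIs in 78 of 315 members of the E9.5 control and 2 UMIs in 1 of 69 members of the knockout. The log2 ratio was −3.89 (−6.95 to −2.01), while non-members stood at 31.7 and 25.7 UPM, a ratio of −0.30. After thinning, Hopx was found in 53 of 299 members (17.7%) and 1 of 62 (1.61%, 0.0408 to 8.66), and in 33 of 687 (4.80%) and 2 of 194 (1.03%) Epcam-positive cells. Hopx was thus near the level of Epcam-positive cells in cKO members and above it in Ctrl members.

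The lowest ratio was that of Abhd6, a lipase of endocannabinoid breakdown, at −3.98 (−9.30 to −1.47), from 86 UMIs in 71 Ctrl cells to 1 UMI. Lrch1, Wisp1, Sec14l2, Papolg, Adat3, Dnaaf5, Mtfmt, Ahcyl2, Celf2 and Lsr made up the other 10, from −3.51 to −2.69. Wisp1 encodes a matricellular protein of the WNT pathway and Celf2 an RNA-binding protein of splicing. Lsr, an epithelial tricellular junction gene, held 70 UMIs in 49 Ctrl members and was found in 64.5% of Epcam-positive cells of that library after thinning.

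The 12 genes named higher at E9.5 had ratios from 1.15 to 1.57. Thra, a thyroid hormone receptor, stood at 4.69, 6.45, 6.48 and 18.01 UPM, with 1.47 (0.66 to 2.25). Ppp1r16b, an endothelial phosphatase regulator, stood at 4.69, 16.1, 7.53 and 18.8 UPM, with 1.32 (0.54 to 2.06), and was found in 21 of 299 and 14 of 62 thinned members against 43 of 687 and 19 of 194 Epcam-positive cells. Furin, a proprotein convertase, stood at 9.37, 19.3, 8.14 and 18.01 UPM, with 1.15 (0.36 to 1.89). Tmem94, Myadm, Pcnx, Prrg2, Myo7a and Cdc37l1 were higher with between 16 and 33 UMIs in cKO. The ratios of 8 of the 12 were still past the fold without the leading members. Those of Tagln3, Cdh11, Twist2 and Furin were not, and Tagln3, a neuronal gene, had 13 of its 18 UMIs in the cKO member that also held Tubb3 and Neurod1.

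Signalling lists gave single genes past the fold at E9.5. In the Notch list 7 of 15 were measured and Hey1 was the only one past the fold. Nrarp had −0.89 (−1.50 to −0.32) and the receptor gene Notch4 0.78 (0.09 to 1.44), while Notch1 (−0.18, −0.63 to 0.25) and Hes1 (−0.16, −0.57 to 0.23), a receptor and a target, had intervals that included 0. In the VEGF list 7 of 10 were measured, and Nrp1 was past the fold, while the decoy receptor gene Flt1 had −0.14 (−0.40 to 0.10). Esm1, from the angiopoietin and tip cell list, stood at 0, 0, 18.4 and 8.19 UPM, with −1.17 (−2.26 to −0.24), and −2.33 (−4.23 to −0.93) without the leading members. Thbd, thrombomodulin of the flow response list, had −1.24 (−2.73 to −0.05), from 77 and 6 UMIs, beside 0.58 in non-members.

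In the BMP and TGF-β list 11 of 12 were measured and none was past the fold. Id1, a direct BMP target, stood at 190, 222, 160 and 281 UPM, with 0.81 (0.63 to 0.98), beside 0.45 in non-members. Smad7, an inhibitory Smad, had 0.90 (0.16 to 1.58), and Id2 and Id3 0.25 (0.03 to 0.47) and 0.16 (0.06 to 0.25). Both receptor genes Eng (−0.20, −0.45 to 0.04) and Bmpr2 (−0.33, −0.94 to 0.23) had intervals that included 0. Of the 11 measured genes, these 4 Id and Smad genes thus had intervals above 0, beside 7.56% of all measured genes. Acvrl1 alone had an interval below 0, beside 22.4% of all measured genes.

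The basement membrane list was measured in full, 10 of 10, with none past the fold and a median of 0.11. Sparc, a matricellular protein, stood at 330, 355, 748 and 521 UPM, with −0.52 (−0.64 to −0.40), and the laminin gene Lamc1 had −0.73 (−1.34 to −0.18), beside −0.46 and −0.996 in non-members. The collagen genes Col4a1 (0.12, −0.09 to 0.33) and Col4a2 (0.10, −0.19 to 0.38) were near 0. In the guidance list Nrp1 was the only one of 6 past the fold. In the list of cushion and endothelial-to-mesenchymal transition genes, 6 of 9 were measured and no interval left out 0, with Snai1, a repressor that drives this transition, at −0.07 (−0.73 to 0.54).

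Of 10 S phase genes at E9.5, 1 was past the fold lower in cKO and 8 had intervals below 0, with a median of −0.52. Of 10 G2/M genes none was past the fold and 5 had intervals below 0, with a median of −0.43. Over all measured genes 22.4% had intervals below 0, and the 1 of 20 past the fold is near the background of 4.49%. Cdc6, a licensing factor of replication origins, had −1.10 (−1.80 to −0.48), Rrm2, a ribonucleotide reductase subunit, −0.75 (−0.96 to −0.55), and Cdk1, the mitotic kinase, −0.83 (−1.03 to −0.64). Non-members had −0.82, −0.73 and −0.60 for the same genes. Pcna, the sliding clamp, had 0.15 (−0.11 to 0.40) and the proliferation marker Mki67 0.07 (−0.32 to 0.44). Of the mesenchyme list 5 of 8 were measured. Prrx1, a mesenchymal homeobox gene, had 1.07 (0.23 to 1.87) and Tcf15, a somite factor, 1.35 (0.59 to 2.08), beside 0.98 and 0.74 in non-members, while Foxc2 had −0.89 (−1.59 to −0.25).

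At E8.5 the comparison rested on 21 and 13 members, and 2073 genes were measured. Of these 2.94% were past the fold, with 39 higher (1.88%) and 22 lower (1.06%) in cKO, and a median log2 ratio of 0.00. TMM scaling made this 32 higher and 30 lower. Of the 61 genes, 23 (37.7%) had a non-member ratio in the same direction that was too large, beside that of members, for naming by size. No fold was required of non-members.

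Arterial genes were mostly too rare to be measured at E8.5. Nrp1 and Sox17 were the 2 measured, with 1.46 (0.63 to 2.34) and 0.69 (−0.07 to 1.46). Nrp1 UMIs came from 13 Ctrl and 12 cKO members, and the ratio without the leading members was 1.55 (0.60 to 2.55). Gja4 came from 1 Ctrl cell and 4 cKO cells, Dll4 from 1 and 3, and Gja5 from 0 and 2. Of the endocardial list only Hapln1 was measured, at 0.58 (0.29 to 0.86). Other list genes past the fold at E8.5 were Sox18, Stab1 (1.15, 0.41 to 1.92), Hes1 (1.29, 0.50 to 2.11) and Plxnd1, the endothelial semaphorin receptor (1.60, 0.79 to 2.47). All of these were higher in cKO and none lower. Etv2 and Lmo2 had 0.90 (0.30 to 1.51) and 0.91 (0.34 to 1.49), and 1 cKO member held 20 of the 57 Etv2 UMIs and 33 of the 63 Lmo2 UMIs.

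Several of the largest E8.5 ratios came from single cells. Ccdc163 had 5.12 (3.52 to 7.43), but 72 of its 76 cKO UMIs were in 1 cell, and without the leading members the ratio was 1.56 (−1.24 to 5.03). Loxl2, a lysyl oxidase of collagen crosslinking, had 80 of 123 UMIs in 1 cell, and its ratio went from 3.23 to 2.14 (1.24 to 3.12). Cdkn1c had 115 of 189 UMIs in 1 cell, and its ratio went from 2.81 to 2.14 (1.46 to 2.87). Clic4, a chloride channel protein of vessel lumen formation, had 66 of 87 UMIs in 1 cell, and its ratio went from 2.65 to 0.92 (−0.09 to 1.95). Hopx had 31 of 43 UMIs in 1 cell, and its ratio turned from 1.30 to −0.21 (−1.37 to 0.88). The 8 of the 12 named higher genes that stayed past the fold included F2r, the thrombin receptor PAR1, at 1.36 (0.82 to 1.92), Hk2, the glycolytic hexokinase, at 1.30 (0.77 to 1.84), and Lipt2, a lipoyltransferase, at 1.27 (0.57 to 1.99). Of the others, Ptbp3 and Yes1 stayed past the fold and Gcc2 did not.

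All 12 genes named lower at E8.5 stayed past the fold without the leading members. Kpna2, a nuclear import receptor, had −1.81 (−2.89 to −0.85), from 53 to 11 UMIs. Golga3, a golgin, had −1.74 (−2.89 to −0.74), while non-members had 0.82, and 22 of its 46 Ctrl UMIs were in 1 cell, without which and its cKO counterpart the ratio was −1.28 (−2.74 to −0.018). Sugt1, Otub1, Gsta4, Dctn2, Smu1, Ubl4a, Wdr12, Ppie and Mrps7 lay between −1.29 and −1.06.

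Control members were compared between E8.5 and E9.5. This comparison also differs in the tissue dissected, which cannot be told apart from stage. Among 7957 genes 8.42% were past the fold, with 517 higher (6.5%) and 153 lower (1.92%) at E9.5, and a median of 0.24. Of the 670 genes, 305 (45.5%) had a same-direction non-member ratio too large, beside that of members, for naming by size. No fold was required of non-members here either. TMM scaling, which takes 0.118 off every log2 ratio, made this 383 higher and 208 lower. The 13 arterial genes held 99 UMIs at E8.5 and 3137 at E9.5, a summed level of 232 and 473 UPM. The 9 measured genes had a median of 1.12 and 4 were past the fold, but Dll4 and Gja4 passed the minimum of 50 UMIs through E9.5 alone, so this count gives no support. With a minimum of 1 UMI the median was 0.90. Gja4 had 1.53 (0.28 to 3.16), Dll4 3.32 (0.82 to 8.63) from 1 and 155 UMIs, Hey1 1.12 (0.36 to 1.999) and Nrp1 1.21 (0.56 to 1.95). Non-members had −0.18, 1.18, 1.28 and 0.999 for the 4 genes. The Hey1 difference was thus shared with them, and most of the Nrp1 difference as well. Esm1, at 0 UMIs in Ctrl E8.5, was at least 1.39 higher on the log2 scale against a floor of 3 UMIs in that library.

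Other vascular genes were higher at E9.5 too. Of 17 endothelial genes 3 were past the fold, namely Emcn (1.29, 0.96 to 1.63), Tek (1.58, 0.72 to 2.59) and Cldn5 (1.97, 1.67 to 2.29). Of 7 venous genes 3 were, namely Ephb4 (1.32, 0.25 to 2.64), Nrp2 (1.33, 0.68 to 2.07) and Aplnr (1.75, 1.27 to 2.28), and non-members went the other way for Aplnr at −1.52. Klf2 had 1.85 (1.17 to 2.64), and Edn1, the vasoconstrictor endothelin 1, −2.44 (−3.32 to −1.49), with 10 of its 15 E8.5 UMIs in 1 cell and −1.16 (−2.52 to 0.54) without the leading members. The VEGF ligand gene Vegfb had −1.09 (−1.76 to −0.36). In the basement membrane list Col4a2 (1.32, 0.61 to 2.14), Lama4 (2.29, 0.72 to 4.58) and Sparc (1.18, 0.94 to 1.43) were past the fold of 10 measured. Plxnd1 had 1.18 (0.52 to 1.92) and the mitotic checkpoint gene Bub1 1.09 (0.09 to 2.32). Tek, the 3 venous genes, Col4a2, Lama4, Plxnd1 and Bub1 passed the minimum of UMIs through E9.5 alone. The counts of genes past the fold in their lists therefore give no support. Emcn and Cldn5 passed that minimum in Ctrl E8.5 as well.

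Endocardial and early genes did not pass the fold between stages. The endocardial median was 0.66 over 6 genes but −0.31 with at least 5 UMIs of Cdh5 and Pecam1 required, with Nfatc1 at 1.02 (−0.89 to 4.10) from 2 and 63 UMIs, Npr3 at 0.91 (−0.04 to 2.05) and Hapln1 at −0.43 (−0.64 to −0.21). Etv2 had −0.52 (−0.97 to −0.02), beside −2.78 in non-members and 0.038 under the rule of 5 UMIs, and Fli1, an ETS factor, −0.92 (−1.21 to −0.61). Myl7, the atrial myosin light chain, had −2.70 (−3.48 to −1.86), and Prrx2, a mesenchymal homeobox gene, −1.34 (−1.81 to −0.83).

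Among genes named by size, Asb4, a ubiquitin ligase subunit of vascular differentiation, stood at 16.4, 29.0, 168 and 159 UPM, with 3.36 (2.31 to 4.68) between control stages, and was found in 4 of 21 and 207 of 299 thinned members against 0 of 13 and 43 of 687 Epcam-positive cells. Both cKO libraries had the same order. Gypc, a membrane skeleton protein, stood at 2.34, 12.9, 37.5 and 27.0 UPM, from 1 UMI in Ctrl E8.5. Casp8, Tspan15, Dhrs4, Clpx, Arhgap27, Sap30l, Fance and Alg9 were likewise at 1 UMI in Ctrl E8.5, with ratios from 3.89 to 3.30 and intervals that reached below 1.5 at their lower end. Of the genes named lower, Pcgf5, a Polycomb subunit, stood at 101, 93.5, 20.2 and 23.7 UPM, with −2.32 (−2.82 to −1.79), and Kdm6b, a histone H3K27 demethylase, at 93.7, 45.1, 22.3 and 22.9, with −2.07 (−2.58 to −1.53). Pyy and Rabggta had 10 of 15 and 16 of 21 E8.5 UMIs in 1 cell. Without the leading members Pyy went from −2.41 to −1.29 (−2.66 to 0.42) and Rabggta from −2.18 to −0.22 (−1.51 to 1.44). Ppp6r1, Kpna2, Fam219b, Serp2, Phf6 and Aif1l lay between −1.79 and −1.65.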

How the data were processed

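Per the labels and the study's methods, GFP-positive cells were loaded on the 10x Chromium Single Cell 3′ v2 platform, and the authors made the deposited matrices of raw UMI counts per gene and barcode with Cell Ranger on mm10. The submitters' processing notes give version 3.1.0, and the headers of both E8.5 matrices give 3.0.2. The cKO E9.5 matrix lists 31053 genes and the other 3 list 27998. Libraries were grouped by their titles, 1 per group, so no test over samples was possible and no p-value is given. Members and gene lists (24 lists, 198 genes) were chosen with earlier results of these data known.

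Counts of members were summed per library and divided by the total of the 27514 shared genes. Intervals at 95% were exact Poisson for levels, exact conditional binomial for ratios, Clopper-Pearson for shares and Newcombe for differences of shares. They cover counting error only, and UMIs of 1 cell are not independent, so they are too narrow for a comparison of conditions. A gene needed 50 UMIs over both libraries and a fold of 2 with an interval excluding 0. Counts of 0 were bounded at 3 UMIs per library. Cells were thinned at random to 10000 UMIs for shares of positive cells, which left out 0, 1, 16 and 7 members.

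Genes were named from the lists, and by size as the 12 highest and 12 lowest past the fold in each comparison whose non-member ratio was under 0.5 times that of members, leaving out haemoglobin, mitochondrial, ribosomal, sex-linked and predicted genes. Within Ctrl E9.5 the 10 highest and 5 lowest genes of each cell split were named. Alternatives changed the rule, the depth, the scaling, the weight of cells, the filter and the background. Computation used Python 3.11.15, numpy 2.4.6, scipy 1.17.1, pandas 2.3.3, matplotlib 3.10.9, R 4.3.3 and edgeR 4.0.16 (TMM factors only), and was tested on simulated data. Promoter sequences were from RefSeq on GRCm38.p6. A few genes that met these rules are not reported here.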

Additional observations from a re-analysis of the deposited data

Results flagged for a closer look

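Of the genes named, 5 that were past the fold at 1 stage or both had log2 ratios of cKO to Ctrl in members that lay on opposite sides of 0 at E8.5 and E9.5, with both intervals clear of 0. The difference between stages was not tested, and it rests on 1 library per group. Nrp1, the VEGF and semaphorin co-receptor, had 1.46 at E8.5 and −1.07 at E9.5. Hopx had 1.30 and −3.89, but 31 of its 43 UMIs in cKO E8.5 were in 1 cell. Cdkn1c had 2.81 and −0.49, with 115 of 189 UMIs of cKO E8.5 in 1 cell. F2r, the thrombin receptor, had 1.36 and −0.52, and Lipt2 had 1.27 and −0.68. The dissected tissue differed between the stages as well, and its part in these values was not tested. Etv2 (0.90 and −0.90), Lmo2 (0.91 and −0.67), Hapln1 (0.58 and −0.49) and Egfl7 (0.45 and −0.19) had intervals on opposite sides of 0 as well, each short of the fold at both stages.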

How the results depend on the processing

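Of the main results, 65 values under the alternatives stayed inside the counting interval of the value reported (for a median, that of its middle gene, and for a count of genes, the same size within a set factor), 18 moved and 1 reversed. Of the values for single genes, 1049 stayed, 79 moved and 21 reversed. The causes were not tested. With at least 5 UMIs of Cdh5 and Pecam1 the E9.5 share difference was −3.87 points, 35 genes were past the fold at E8.5 and 376 between stages, and the endocardial stage median was −0.31. Kdr went to −0.37 at E8.5, Tagln3 to −0.21 at E9.5 and Etv2 to 0.038 between stages. With the rule on thinned barcodes the share difference was −3.26 points and the counts were 30 and 406. Hopx went to −0.041 at E8.5, Nr2f2 to −0.084 at E9.5 and Rabggta to 0.93 between stages. With the non-member ratio subtracted, 28, 220 and 351 genes were past the fold at E8.5, at E9.5 and between stages, and the arterial medians were 0.46 at E9.5 and 0.29 between stages. At E9.5 this turned Dab2 (0.27), Dll4 (0.99), Efnb2 (0.46), Erg (0.088), Esm1 (1.57), Hapln1 (0.13), Lmo2 (0.34), Nrarp (0.28) and Sox17 (1.43), and between stages Etv2 (2.26), Hapln1 (0.97), Hey1 (−0.17) and Sparc (−0.38). With 1 UMI in place of 50 as the minimum, 344 genes were past the fold at E8.5, with medians of 0.88 endocardial and 1.46 arterial, and the endocardial stage median was −0.25. The endocardial median at E9.5, near 0 as reported, lay between −0.32 and 0.42. Both of the following alternatives were added after seeing the data. With genes whose non-member ratio was within 0.5 of 0 the counts were 30, 114 and 193, and without the leading member Hopx was −0.21 at E8.5 and Tagln3 −0.21 at E9.5. Under TMM scaling the counts were 62, 383 and 591. The arterial median at E8.5 had no value under the stricter and thinned rules. Each group was 1 library, so leaving out a replicate could not be done. No paired analysis was possible because the labels give no replicate numbers and each group is 1 library. Depth limits the E8.5 comparison, since members gave 426742 and 310238 UMIs in Ctrl and cKO, against 6636040 and 1221604 at E9.5.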
